A study of Homo sapiens with 6 samples.

Results

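The 8 adhesion genes described here are known from lymphocytes: the integrin chains ITGAL, ITGB2, ITGA4, ITGB1 and ITGB7, the integrin ligand ICAM1, the selectin ligand SELPLG and the hyaluronan receptor CD44. They were chosen by gene name, and all 8 had 1 row each among the 34675 genes of the deposited table. Gene expression was measured by RNA sequencing in U2932, an established line derived from human diffuse large B cell lymphoma. The cells were infected either with the hairpin TRCN0000358536 against PRDM11 (3 samples) or with the pLKO-puro scramble hairpin (3 samples), and all were kept in puromycin for 3 days. A single hairpin was used against PRDM11, so its effects on other targets cannot be told apart from depletion of PRDM11. The values came as means of conditions called A and B, and no header or label ties either of them to the knockdown. Every difference is therefore stated as condition A relative to condition B. PRDM11 itself had 268, 272 and 323 normalised reads in condition A, and 565, 516 and 545 in the other 3. The log2 ratio of PRDM11 was -0.91 (adjusted p = 1.76e-08 by DESeq, the authors' deposited table), and it was not used to assign the conditions.

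Integrins are pairs of an alpha and a beta chain that hold cells to matrix and to other cells. On B cells, ITGAL with ITGB2 forms LFA-1, whose ligands include ICAM1. ITGA4 pairs with ITGB1 in the receptor for VCAM1 and fibronectin, and with ITGB7 in the gut-homing receptor for MADCAM1. SELPLG encodes PSGL-1, the ligand of P-selectin in leukocyte rolling, and CD44 binds hyaluronan. A beta chain reaches the surface only with an alpha chain, so the balance of transcripts of both chains is described as well as each gene alone.

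Reads of single libraries were recovered from the means, because each mean is a weighted sum of 3 whole numbers, and were divided by size factors to give normalised reads. Within a condition, libraries are numbered from the largest size factor down, and these numbers carry no link to the replicate numbers of the labels. For the rows recovered, reads per library ran from 21524359 to 33274662. Of all normalised reads, these rows hold 63.1% for A and 67.9% for B, so the true depth was larger. Library 3 of condition A and library 1 of condition B stood apart from their fellows. The mean chi-square per gene between libraries of condition A was 8.45 (1 and 2), 20.2 (2 and 3) and 43.9 (1 and 3). For condition B it was 23.2 (1 and 2), 23.0 (1 and 3) and 2.36 (2 and 3), where counting noise alone gives about 1. Whether the samples were grown as separate cultures is not in the labels; p-values here measure only the spread among the samples at hand, and that spread may be technical. The B cell identity of the line was clear in the data: MS4A1 had means of 84146 and 71390 normalised reads in A and B, and PAX5 35652 and 35450, in the authors' deposited table. CD79B was called higher in condition A there, and none of the other cell types' markers was called. Endothelial and platelet markers summed to at most 3.16 normalised reads in any library, T and NK cell markers to 52.6 to 83.3, and myeloid markers to 48.6 to 72.9. The first sum rests on CDH5, VWF and TEK, since the platelet genes PPBP and PF4 had no row. CD3D and CD2 of the T and NK cell markers and S100A9 of the myeloid markers had no row either. The 6 epithelial and fibroblast markers summed to 1210 to 1453, nearly all of it EPCAM. In bulk RNA of this kind, fewer cells expressing a gene and less RNA per cell cannot be told apart.

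ITGB2 was lower and SELPLG higher in condition A, and the other 6 genes did not pass the threshold, an adjusted p under 0.05. Thus 2 of 8 genes were called, where 2.54% of all rows and 6.04% of those averaging 50 normalised reads or more were called in the authors' deposited table. All 8 had such a mean. In that class 2.18% of genes were called higher in condition A and 3.86% lower, and over all rows 0.966% and 1.57%, beside 1 and 1 of the 8. With thresholds of 0.1 and 0.01 the same count of 2 was called, where 3.46% and 1.46% of all rows were. At an unadjusted p under 0.05 there were 5 of the 8, against 20.8% of genes in that class. The libraries of the conditions did not overlap for 6 of the 8, against 34.7% of such genes with recovered reads. The median log2 ratio of the 8 genes was 0.10, and that of all 13565 genes with a mean of at least 50 was -0.0024. These shares describe 8 genes picked by name and were not tested as a set.

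**Figure D1:**
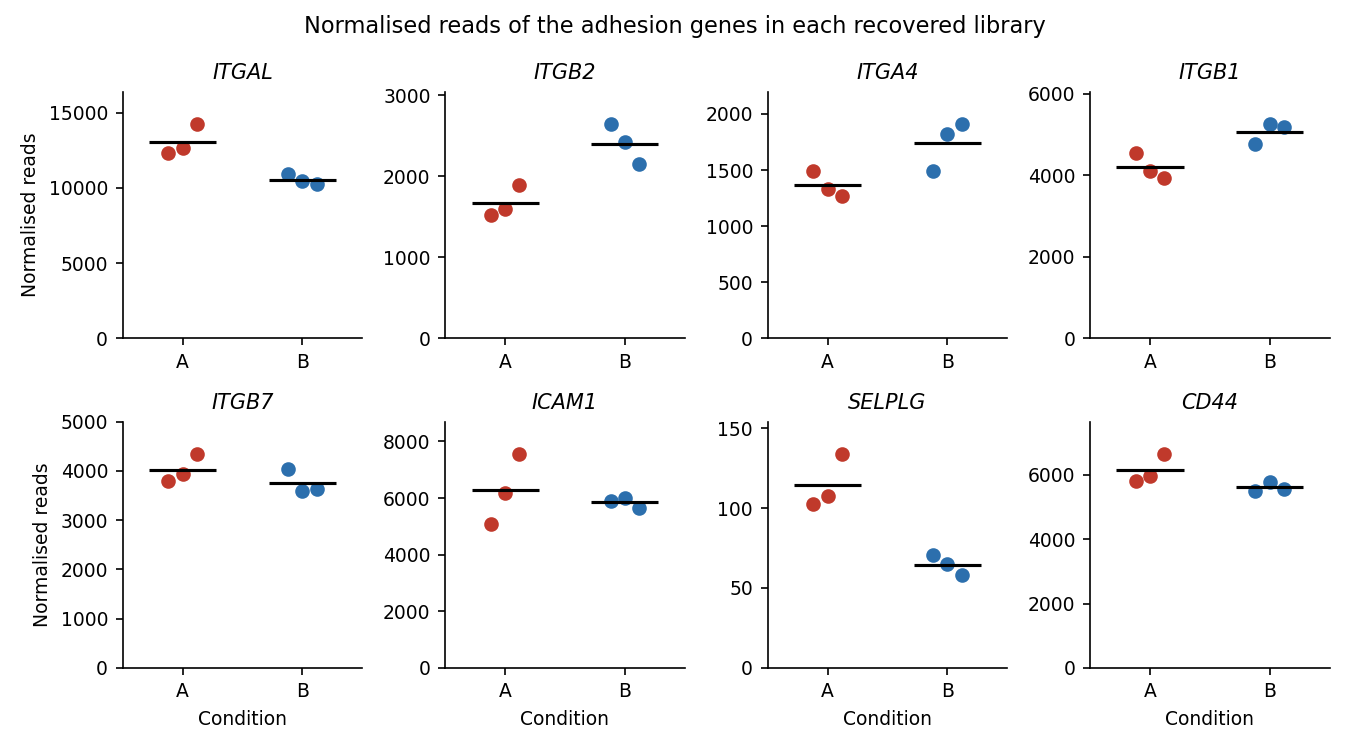
Normalised reads (vertical axes, from 0) of each adhesion gene in the 3 recovered libraries of condition A (red) and of condition B (blue), with a black line at the mean. ITGB2 and SELPLG separate clearly, with 1527 to 1899 against 2152 to 2645 reads for ITGB2, while ITGB7 and ICAM1 overlap between conditions.

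ITGB2, the beta chain shared by the leukocyte integrins, was 1.44-fold higher in condition B. Condition A had 1527, 1599 and 1899 normalised reads of it per library, condition B 2645, 2419 and 2152. Every library of condition A lay below every library of condition B, and the nearest of them were 1899 and 2152. The log2 ratio was -0.52 and its standard error, as the p-value implies it, 0.12 (adjusted p = 0.00236 by DESeq, the authors' deposited table). A limma test of the recovered reads gave -0.52 with a standard error of 0.11 (limma adjusted p = 0.0168), where 9.46% of the 17016 genes tested were called. Without library 2 of condition A, library 1 of condition B or library 2 of condition B, the limma adjusted p rose to 0.0854, 0.0538 and 0.0796, while the fold estimates from 5 libraries ranged from -0.62 to -0.45 on the log2 scale. ITGB2 (ENSG00000160255) has coding intervals on chromosome 21 from 46306286 to 46330697 in hg19, in 17 blocks.

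ITGAL, the alpha chain that pairs with ITGB2, had values that went the other way. It had 12338, 12644 and 14239 normalised reads in condition A and 10889, 10459 and 10247 in condition B. The groups did not overlap, and library 3 of condition A was the highest. The log2 ratio was 0.31 and its implied standard error 0.12 (adjusted p = 0.203 by DESeq, the authors' deposited table), so ITGAL was not called there. The limma test of recovered reads placed it past the threshold (log2 ratio 0.31, 95% interval 0.14 to 0.48, limma adjusted p = 0.0340). With any 1 library left out the limma adjusted p ran from 0.0253 to 0.151, and it missed the threshold without library 2 of condition A, library 2 of condition B or library 3 of condition B. With all libraries and no minimum mean it was 0.0559, above the threshold. ITGAL (ENSG00000005844) lies on chromosome 16, with coding intervals from 30484159 to 30532983 in hg19.

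Because both chains were counted in the same libraries, their ratio does not depend on size factors. Per read of ITGB2 there were 8.08, 7.91 and 7.50 reads of ITGAL in condition A, and 4.12, 4.32 and 4.76 in condition B. The mean ratio was 7.83 ± 0.30 (SD, n = 3) in condition A and 4.40 ± 0.33 (SD, n = 3) in condition B, a 1.78-fold difference. The lowest value of condition A, 7.50, was well above the highest of condition B, 4.76. An exact two-sided permutation test gave p = 0.1, the smallest that 3 against 3 libraries allow (0.3 when adjusted over the 3 chain ratios computed). The ratio was chosen after the values of both genes were seen. Per kilobase of merged exon, ITGAL exceeded ITGB2 in all 6 libraries, by 4.32-fold to 8.49-fold.

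**Figure D2:**
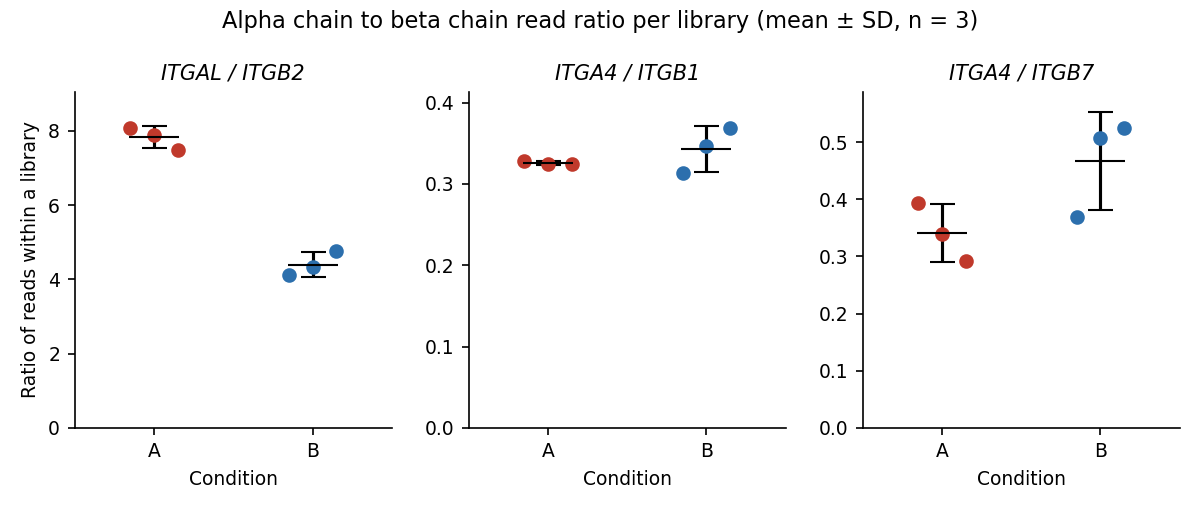
Reads of an integrin alpha chain per read of its beta chain within each library (vertical axes, from 0), for condition A (red) and condition B (blue), with the mean and SD of 3 libraries in black. The ITGAL to ITGB2 ratio lies at 7.50 to 8.08 in condition A and at 4.12 to 4.76 in condition B, and both ITGA4 ratios overlap between conditions.

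Of the other alpha chains that can pair with ITGB2, very few reads were found. ITGAM had means of 2.24 and 0.97 normalised reads in conditions A and B, ITGAX 0.43 and 0.67 and ITGAD 0.76 and 0.32 in the authors' deposited table. These 3 genes were picked for mention after their values were seen.

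ITGA4 and ITGB1, the chains of the VCAM1 and fibronectin receptor, both had lower values in condition A, and neither was called. ITGA4 had 1492, 1332 and 1271 normalised reads in condition A and 1494, 1820 and 1909 in condition B. The groups only just failed to overlap, since library 1 of condition A (1492.1) lay next to library 1 of condition B (1493.9). Its log2 ratio was -0.35 and its implied standard error 0.14 (adjusted p = 0.256 by DESeq, the authors' deposited table). ITGB1 had 4550, 4100 and 3924 normalised reads in condition A against 4763, 5254 and 5175 in condition B. All 3 libraries of condition A were again below those of condition B. The log2 ratio of ITGB1 was -0.27 and its implied standard error 0.12 (adjusted p = 0.375 by DESeq, the authors' deposited table). By limma the adjusted p was 0.0728 for ITGA4 and 0.0643 for ITGB1. Without library 1 of condition A it fell to 0.0389 and 0.0300, and without library 1 of condition B that of ITGA4 fell to 0.0344. The coding intervals of ITGA4 (ENSG00000115232) span 182322382 to 182400251 on chromosome 2 in hg19, and those of ITGB1 (ENSG00000150093) span 33190501 to 33224486 on chromosome 10.

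The ratio of ITGA4 to ITGB1 showed little spread in condition A. In condition A it was 0.328, 0.325 and 0.324, and in condition B 0.314, 0.346 and 0.369. The means were 0.326 ± 0.0020 (SD, n = 3) and 0.343 ± 0.028 (SD, n = 3), and the groups overlapped (exact two-sided permutation p = 0.4, also 0.4 when adjusted over the 3 ratios). The sequences before the start sites of this pair are shown because both chains had lower values in condition A. Each is the 250 bases upstream of a RefSeq start in GRCh38.p14, 5′ to 3′ on the gene's strand. Capitals mark matches to the letters GGGCGG (a GC box) or GAGGAA (a core bound by PU.1 and other ETS factors), searched on both strands, so that CCGCCC and TTCCTC count too.
ITGA4 (chr2:181457136-181457385, plus strand): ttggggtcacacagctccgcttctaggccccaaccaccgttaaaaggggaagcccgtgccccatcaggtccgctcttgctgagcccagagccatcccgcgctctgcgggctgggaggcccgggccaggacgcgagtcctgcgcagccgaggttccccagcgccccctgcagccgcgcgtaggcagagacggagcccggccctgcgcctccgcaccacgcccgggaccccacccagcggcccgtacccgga
ITGB1 (chr10:32958231-32958480, minus strand): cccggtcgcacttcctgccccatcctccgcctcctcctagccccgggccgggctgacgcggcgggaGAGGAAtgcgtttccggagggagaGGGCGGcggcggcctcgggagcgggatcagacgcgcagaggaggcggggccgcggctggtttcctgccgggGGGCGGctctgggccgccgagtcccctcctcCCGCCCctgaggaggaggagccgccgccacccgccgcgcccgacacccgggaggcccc
The ITGB1 stretch held 3 GC box matches, starting 160, 89 and 58 bases before the start, and 1 GAGGAA match at 184. No match to either lay in the ITGA4 window, and neither window held the AP-1 letters TGANTCA. Of 35116 RefSeq promoter windows of 300 bases, 45% hold the GC box letters, 27.9% GAGGAA and 7.71% TGANTCA. A second RefSeq start of ITGB1 had 0 matches to these 3 motifs. Promoter entries were matched for ITGA4, ITGB1, ITGB7, ICAM1 and CD44, that is 5 of the 8 genes, and not for ITGAL, ITGB2 and SELPLG.

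ITGB7, the second partner of ITGA4, did not differ beyond its spread. It had 3789, 3933 and 4348 normalised reads in condition A and 4046, 3587 and 3637 in condition B. The groups overlapped, and the limma 95% interval of the log2 ratio ran from -0.09 to 0.29. The deposited log2 ratio was 0.10 (adjusted p = 1 by DESeq, the authors' deposited table). The ratio of ITGA4 to ITGB7 was 0.342 ± 0.051 (SD, n = 3) in condition A and 0.467 ± 0.085 (SD, n = 3) in condition B, with overlapping libraries (exact two-sided permutation p = 0.2, 0.3 when adjusted over the 3 ratios). ITGB7 shares 1886 exon bases with ZNF740 on the opposite strand in GENCODE 29. ZNF740 had means of 3073 and 2790 normalised reads in the authors' deposited table, and the strand setting of the counting is not given in the sources used here, so reads of the shared exons cannot be told apart. ITGB7 (ENSG00000139626) is coded between 53585343 and 53594227 on chromosome 12 in hg19.

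SELPLG was the largest of the 8 differences and the gene with the fewest reads. Its libraries held 103, 107 and 134 normalised reads in condition A and 70.6, 64.7 and 57.9 in condition B. The counts behind these were 124, 110 and 103 reads against 77, 68 and 55. No library of condition A came below 103 and none of condition B above 70.6. The mean was 1.78-fold higher in condition A, with a log2 ratio of 0.83, its implied standard error being 0.22 (adjusted p = 0.00991 by DESeq, the authors' deposited table). By limma it was 0.82 with a standard error of 0.16 (limma adjusted p = 0.0130). The limma adjusted p was 0.0505, 0.0591 and 0.0629 without library 2 of condition A, library 2 of condition B and library 3 of condition B, and the log2 ratio kept between 0.70 and 0.89. SELPLG (ENSG00000110876) has 3 coding blocks on chromosome 12, from 109016848 to 109025677 in hg19.

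CD44 had 5798, 5974 and 6661 normalised reads in condition A and 5507, 5786 and 5553 in condition B. The groups were apart by a narrow margin, 5798 against 5786. Its log2 ratio was 0.13 and its implied standard error 0.13 (adjusted p = 1 by DESeq, the authors' deposited table), and the limma 95% interval was -0.04 to 0.30. The table gives 1 value per gene, so the splice forms of CD44 were not analysed here. CD44 (ENSG00000026508) is coded in 19 blocks on chromosome 11, between 35160851 and 35250877 in hg19.

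ICAM1, the ligand of LFA-1, was the most variable of the 8 in condition A. Its libraries held 5077, 6196 and 7568 normalised reads there, a coefficient of variation of 19.9%. In condition B they held 5907, 6011 and 5640, a coefficient of variation of 3.27%. The 3 libraries of condition B lay within the range of condition A. The log2 ratio was 0.10 and its implied standard error 0.31 (adjusted p = 1 by DESeq, the authors' deposited table). By limma the 95% interval was -0.19 to 0.36, and the value turned to -0.061 without library 3 of condition A. ICAM1 (ENSG00000090339) is coded in 7 blocks on chromosome 19, between 10381836 and 10395960 in hg19.

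**Figure D3:**
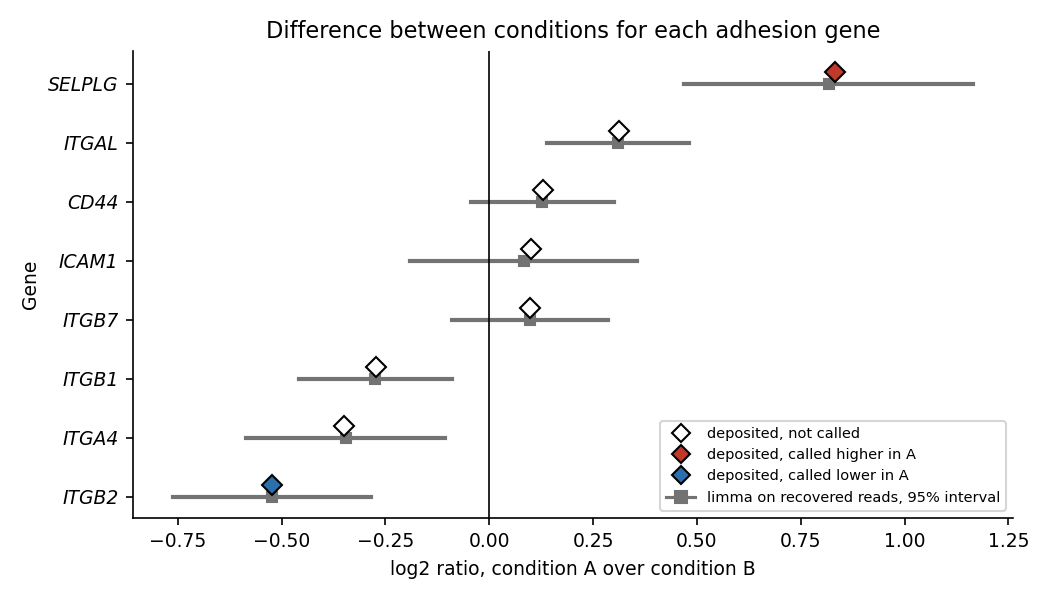
Log2 ratio of condition A over condition B (horizontal axis) for each adhesion gene: diamonds give the value in the authors' deposited table, filled where the adjusted p was under 0.05, and grey squares with bars the limma estimate and its 95% interval. The intervals of SELPLG and ITGAL lie above 0, those of ITGB2, ITGA4 and ITGB1 below, and those of CD44, ICAM1 and ITGB7 include 0.

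Library 3 of condition A was at an extreme of its condition for all 8 genes, and so was library 1, with library 2 between them. Library 3 was the highest of the 3 for ITGB2, ITGAL, ITGB7, ICAM1, SELPLG and CD44, and the lowest for ITGA4 and ITGB1. For library 1 it was the reverse. Among all 12968 genes of recovered reads and a mean of 50 or more, library 3 was the highest for 42.8% and the lowest for 43%. Library 1 was the highest for 40.1% and the lowest for 38.9%. Leaving out 1 library at a time in the order A 1 to 3 and B 1 to 3, limma called 5, 0, 3, 3, 0 and 1 of the 8 genes, where 13.4%, 2.3%, 9.88%, 6.51%, 2.22% and 2.36% of all genes tested were called. With total recovered reads as scaling it called 3 of the 8 (9.54% of genes tested), and without a minimum mean 2 of the 8 (4.71%). Without library 3 of condition A, ITGB2 had a limma log2 ratio of -0.62, SELPLG 0.70 and ITGAL 0.25, each still past the threshold (limma adjusted p = 0.00176, 0.0187 and 0.0414).

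**Figure D4:**
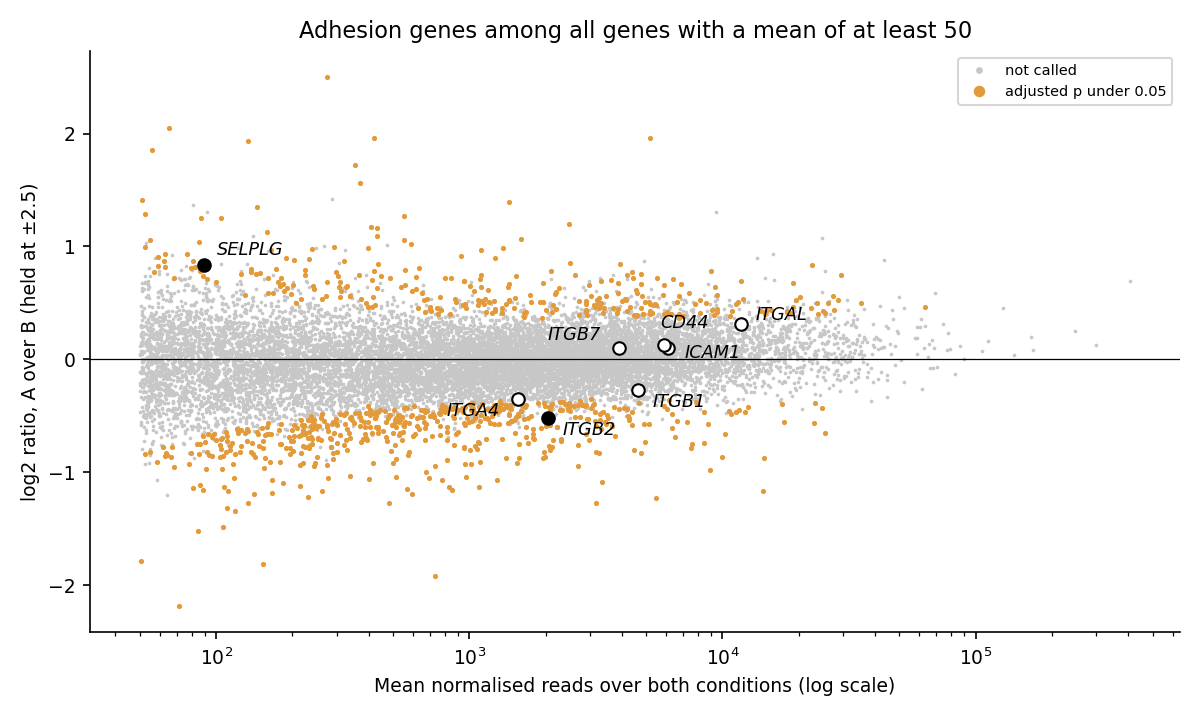
Log2 ratio of condition A over condition B (vertical axis, held at ±2.5) against mean normalised reads (horizontal axis, log scale) for the 13565 genes with a mean of at least 50, grey where not called and orange where the adjusted p was under 0.05. Black filled circles mark SELPLG and ITGB2, which were called, and open circles the other 6 adhesion genes, 4 of which lie within 0.3 of 0.

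Per kilobase of merged exon in GENCODE 29, ITGAL and ICAM1 had the highest levels of the 8, and SELPLG the lowest. In condition A the order of normalised reads per exon kilobase was ITGAL (2020), ICAM1 (1695), ITGB7 (898), ITGB1 (697), CD44 (614), ITGB2 (246), ITGA4 (173) and SELPLG (46.0). In that order the libraries overlapped between ITGAL and ICAM1 and between ITGB1 and CD44, and not between other neighbours. In condition B the order was ITGAL (1627), ICAM1 (1579), ITGB1 (842), ITGB7 (838), CD44 (561), ITGB2 (354), ITGA4 (220) and SELPLG (25.8). There ITGAL overlapped with ICAM1 and ITGB1 with ITGB7. On this scale ITGAL stood above 91.1% of the 13277 genes that average 50 or more and have a length, ICAM1 above 89.7%, ITGB2 above 52.3% and SELPLG above 10.9%. Per kilobase of coding length, ICAM1 had rank 1 and CD44 rank 3 in both conditions, so the order of the upper genes depends on the length used. ITGB2, ITGA4 and SELPLG were the lowest 3 in that sequence on both scales.

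Genes on the opposite strand at both called loci were called too. ITGB2-AS1, a noncoding gene that shares 303 of its 2438 exon bases with ITGB2 in GENCODE 29, had 25.6, 31.2 and 46.9 normalised reads in condition A and 55.0, 76.2 and 62.1 in condition B. Its groups did not overlap, and its log2 ratio was -0.90 (adjusted p = 0.0190 by DESeq, the authors' deposited table), lower in condition A like ITGB2. AC007569.1, an antisense gene that overlaps the bounds of SELPLG and shares 0 exon bases with it, had 52.9, 57.5 and 50.8 normalised reads in condition A and 22.0, 20.0 and 37.9 in condition B. Its groups were apart as well. Its log2 ratio was 1.01 (adjusted p = 0.0179 by DESeq, the authors' deposited table), higher in condition A like SELPLG. The 8 loci hold 12 listed genes on the opposite strand, and these were the 2 called, where 2.54% of all rows were. They were looked up after the members' values were seen. Since the strand setting is not given in the sources used here, reads over the 303 bases that ITGB2 and ITGB2-AS1 share cannot be told apart. AC007569.1 and SELPLG share no exon base in GENCODE 29.

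The genes whose pattern over the 6 libraries was most like ITGB2 were PLEKHO1, SOWAHD and FCRLB. Likeness was the sum of squared differences of centred log2 values over the 6 libraries, compared across 10480 genes with a symbol, and it was 0.012, 0.012 and 0.019 for these 3. PLEKHO1 had 1498, 1570 and 1821 normalised reads in condition A and 2667, 2223 and 2159 in condition B, close to ITGB2 in level too. For SELPLG the nearest were ZFP36, ZNF687 and PRDM1, with sums of 0.0089, 0.011 and 0.017. ZFP36, a binder of AU-rich elements in messenger RNA, had 2864, 3135 and 3674 normalised reads in condition A and 2010, 1757 and 1590 in condition B.

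Other integrin chains showed no call: 0 of 21 listed, with 2.54% of all rows called and 6.04% at a mean of at least 50. The median log2 ratio was 0.04 over the 7 with such a mean. Of the 21, 9 had a mean under 10 and were left out of the limma test. By limma 1 was called, ITGB3, with a log2 ratio of -0.92 (limma adjusted p = 0.0413), where 9.46% of genes tested were called. ITGB3 was also the 1 gene with an unadjusted p under 0.05, among all 21 in the authors' deposited table and among those tested by limma. ITGB3 was low, with 13.2, 11.7 and 11.7 normalised reads in condition A and 22.0, 23.8 and 26.3 in condition B. ITGAV, the alpha chain of vitronectin receptors, had means of 1003 and 1157 normalised reads, and ITGAE, which pairs with ITGB7, 757 and 883 in the authors' deposited table.

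Among 10 listed integrin ligands, 3 were called lower in condition A and 0 higher in the authors' deposited table. Of all rows there, 1.57% were called lower and 0.966% higher. Of rows with a mean of at least 50, 3.86% were called lower and 2.18% higher. SPP1, the secreted matrix protein osteopontin, had 7.44, 16.6 and 11.7 normalised reads in condition A and 37.6, 56.2 and 40.0 in condition B. It was low in both conditions, with a log2 ratio of -1.90 (adjusted p = 1.77e-05 by DESeq, the authors' deposited table). ICAM5, a relative of ICAM1, had 179, 197 and 193 against 294, 273 and 288 (log2 ratio -0.59, adjusted p = 0.00899 by DESeq, the authors' deposited table). F11R, the junctional adhesion molecule JAM-A, had 1098, 1027 and 780 against 1275, 1499 and 1420 (log2 ratio -0.53, adjusted p = 0.0307 by DESeq, the authors' deposited table). For all 3 the groups did not overlap, as for 34.7% of genes with recovered reads and a mean of at least 50. The 3 were named because they were called, so their separation is no further support. SPP1 had a mean under 50. ICAM3, an LFA-1 ligand of leukocytes and the most abundant of the list, had means of 2837 and 3036 and was not called in the authors' deposited table. Over the 7 ligands with a mean of at least 50 the median log2 ratio was -0.14.

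Among 31 genes of integrin activation and adaptors, 2 were called higher and 4 lower in condition A in the authors' deposited table, beside 0.966% and 1.57% of all rows (2.18% and 3.86% at a mean of at least 50). The median log2 ratio was -0.0092 over 28 genes. RASSF5, the Rap1 effector RAPL that binds the ITGAL tail, had 2925, 2915 and 2881 normalised reads in condition A and 4090, 4159 and 4046 in condition B. Its libraries were tight within each condition and well apart between them (log2 ratio -0.50, adjusted p = 0.00232 by DESeq, the authors' deposited table). RASA3, a GTPase-activating protein for Rap1 and Ras, had 3518, 3606 and 3678 against 2426, 2537 and 2367, higher in condition A (log2 ratio 0.56, adjusted p = 0.000346 by DESeq, the authors' deposited table). VCL, vinculin, had 504, 514 and 561 against 1162, 1210 and 1155 (log2 ratio -1.16, adjusted p = 1.8e-16 by DESeq, the authors' deposited table). PTK2, focal adhesion kinase, had 1313, 1136 and 1156 against 1758, 1693 and 1804 (log2 ratio -0.54, adjusted p = 0.00144 by DESeq, the authors' deposited table). RAPGEF1, an exchange factor for Rap1, was the second gene called higher, and PARVG, a parvin of blood cells, the fourth called lower in the authors' deposited table (log2 ratios 0.44 and -0.48); both were picked for mention after their values were seen. TLN1, talin, and FLNA, filamin A, were the most abundant, and their log2 ratios of 0.28 and 0.33 did not pass the threshold in the authors' deposited table. By limma 7 of the list were called, where 9.46% of the 17016 genes tested were. Among the 7 were FERMT2 (log2 ratio -0.59, limma adjusted p = 0.0209) and CYTH1 (0.34, limma adjusted p = 0.0241), which were not called in the authors' deposited table. The reads of RAPGEF1, TLN1, STK4 and FLNA were not recovered, and 2 genes of the list had a mean under 10, so limma tested none of these.

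Of 19 selectin and selectin ligand synthesis genes, ADAM17 alone was called in the authors' deposited table, lower in condition A, where 2.54% of all rows and 6.04% at a mean of at least 50 were called. ADAM17, the protease that sheds L-selectin, had 1531, 1455 and 1376 normalised reads in condition A and 1838, 2189 and 2141 in condition B. The groups did not overlap (log2 ratio -0.50, adjusted p = 0.00458 by DESeq, the authors' deposited table). B4GALT1, a galactosyltransferase, had a log2 ratio of 0.33 and was not called in the authors' deposited table, and by limma it passed (limma adjusted p = 0.0239). PODXL, a sialomucin, had means of 1811 and 2055 and was not called in the authors' deposited table. Over 13 selectin genes of that mean or more the median log2 ratio was -0.15. Of the 18 listed hyaluronan and CD44 partner genes, 0 were called in the authors' deposited table by DESeq, and 0 had an unadjusted p under 0.05 there. Limma did not test EZR and MSN, whose reads were not recovered, nor the 5 genes with a mean under 10. Among the rest it called 0, and 0 had an unadjusted limma p under 0.05. EZR and MSN, the ezrin and moesin that link CD44 and SELPLG to actin, did not pass the threshold in the authors' deposited table, at log2 ratios of 0.18 and 0.14.

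**Figure D5:**
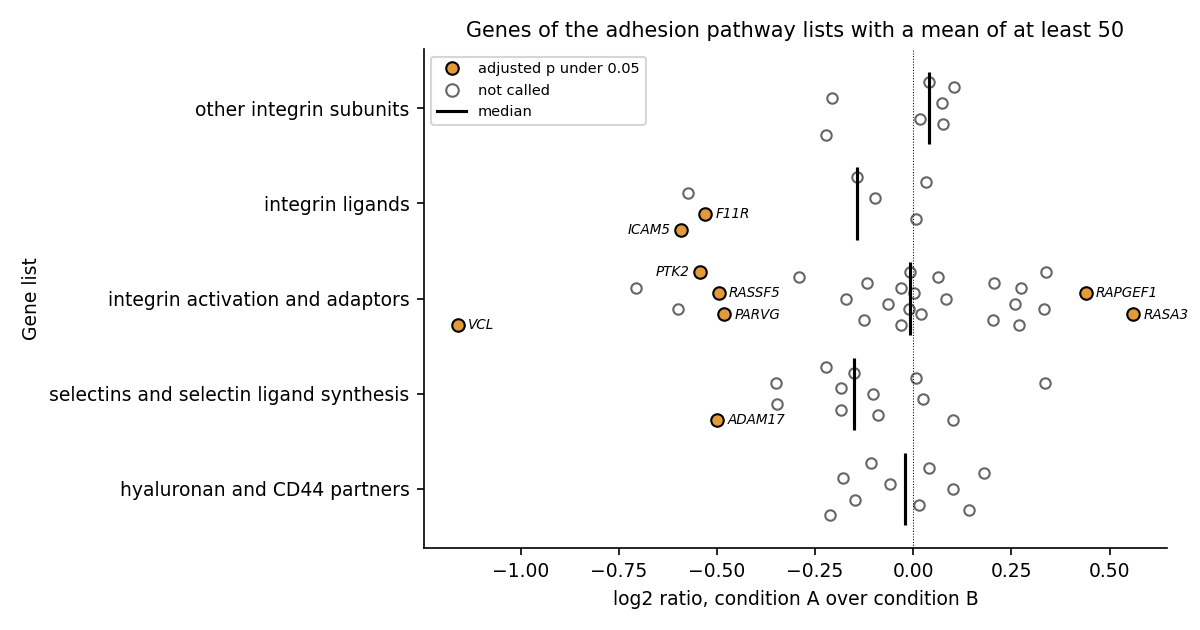
Log2 ratio of condition A over condition B (horizontal axis) for the genes of 5 adhesion pathway lists with a mean of at least 50, 1 circle per gene, orange where the adjusted p in the authors' deposited table was under 0.05, with a vertical bar at the list's median. Medians lie between -0.15 and 0.04, and SPP1 is not drawn because its mean was under 50.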

How the data were processed

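RNA was measured in 6 samples of U2932 cells, 3 per hairpin. STAR, HTSeq 0.5.4p5, DESeq 1.14.0 and hg19 are named in the submitters' processing notes; for the annotation release, the counting mode and the strand, "not given in the sources used here" applies to each. The authors deposited, per the file headers, means of normalised reads (read counts over size factors), their fold ratio and log2 value as B over A (the sign is turned here), a p-value, and that p-value adjusted over all rows. A track, per the file headers in hg19, gives coding intervals with a score deposited by the authors that was not used.

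Members and lists were chosen with earlier results of these data known. Named by rule are the 8 genes and PRDM11, up to 4 called and the 2 most abundant genes per list, and 3 nearest genes per called member. Among genes named beyond this rule, ITGB3, FERMT2, CYTH1, RAPGEF1, PARVG, ITGAM, ITGAX and ITGAD were picked after their values were seen. Whole reads were sought for means up to 15000; above 1500, each library had to lie at 0.7 to 1.4 times the mean. All 8 genes gave 1 solution within that range, and 34089 of 34173 and 34214 of 34214 rows did. Deposited p-values were the main test. Limma 3.58.1 in R 4.3.3 was run on log2(normalised reads + 1) of genes averaging 10 or more, with a trended prior, and was tested on simulated data. The implied standard error is the log2 ratio over the normal quantile of its p, an approximation. Alternatives were total-read scaling, median centring, mean filters, other thresholds and leaving out each library. Intervals cover the spread between libraries only. 0 columns of other samples were left out.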

Additional observations from a re-analysis of the deposited data

How the results depend on the processing

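All 8 genes and PRDM11 kept the sign of their log2 ratio in 98 of 99 alternatives, the exception being ICAM1 at -0.061 without library 3 of condition A. Leaving out 1 library in turn (limma), the log2 ratio ran from -0.62 to -0.45 for ITGB2, 0.25 to 0.35 for ITGAL, -0.45 to -0.28 for ITGA4, -0.33 to -0.23 for ITGB1, 0.70 to 0.89 for SELPLG and -0.061 to 0.23 for ICAM1. ITGB7 ran from 0.041 (without library 3 of condition A) to 0.15 (without library 1 of condition B), and CD44 from 0.068 (without library 3 of condition A) to 0.17, neither called in any. The call was lost for ITGB2 without library 2 of condition A (-0.49), library 1 (-0.45) or library 2 (-0.52) of condition B, and for SELPLG without library 2 of condition A (0.86), library 2 (0.82) or library 3 (0.74) of condition B. Limma's call of ITGAL on all libraries was kept without library 1 (0.35) or 3 (0.25) of condition A or library 1 of condition B (0.33), and lost without the other 3. A call was gained for ITGA4 without library 1 of condition A (-0.41) or of condition B (-0.45) and for ITGB1 without library 1 of condition A (-0.33). The number of the 8 genes called ran from 0 to 5, where 2.22% to 13.4% of all genes tested were called; fewer samples enter each fit. It ran from 0 to 1 for other integrin subunits, 1 to 4 for integrin ligands, 4 to 8 for activation and adaptor genes and 0 to 2 for selectin genes. ITGAL passed the threshold by limma on recovered reads (0.31) and with total recovered reads as scaling (0.28), where 3 of the 8 were called; without a minimum mean its limma adjusted p was 0.0559. Limma called 1 other integrin subunit, ITGB3, under either scaling, and 2 selectin genes under either scaling and without a minimum mean. Of all genes tested, 9.46% were called on recovered reads, 9.54% with total recovered reads as scaling and 4.71% without a minimum mean. The cause was not tested. The setting without a minimum mean, the chain ratios and the levels per coding kilobase were added after the data were seen. Centring moved ratios by 0.0018. No paired analysis was possible because the columns carry no replicate numbers. Counts limit SELPLG most, with 55 to 124 reads a library.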
